A study of Mus musculus with 8 samples.

Results

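The 35 genes described here encode enzymes of DNA replication in S phase and proteins that drive cells through mitosis. Their probes were found by gene symbol in the platform annotation of a mouse bead array. Of the 35 genes, 31 had a probe, out of 16593 named genes on the array, with 54 probes in all. They fall into 13 S-phase genes, of which 12 were measured, and 22 mitotic genes, of which 19 were measured. Rfc3, Ccnb1, Aurkb and Mki67 had no probe under those symbols, so their expression is not analysed here. RNA came from whole tibialis anterior, a fast muscle of the lower hindlimb, of male C57BL/6 mice aged 8 weeks. Muscles were collected 7 days after they received a plasmid for p21, or a control plasmid, with 4 arrays per group. The groups are called p21 muscles 1 to 4 and control muscles 1 to 4. No source used here gives the promoter of the plasmid, the cell types that took it up, the content of the control plasmid or any pooling of animals. Each mouse gave its left and right muscle, and the labels do not tie arrays to mice. The p-values therefore measure the spread between these arrays, which may be technical.

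S-phase enzymes make nucleotides, open and copy DNA and seal the new strands, while mitotic proteins condense chromosomes, attach them to the spindle, police that attachment and divide the cell. Both groups are transcribed mainly in dividing cells and are low in resting tissue such as adult muscle, whose fibers hold nuclei that no longer divide. S-phase genes are classical targets of E2F factors. Mitotic genes are known for a promoter element called the cell cycle homology region (CHR) and for CCAAT boxes. p21 binds and inhibits cyclin-dependent kinases and also binds Pcna protein, and it is known to repress such genes in dividing cells through pocket proteins that act at E2F and CHR elements.

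The promoters of the members are shown first because they carry the features by which the S-phase and mitotic groups are known. RefSeq promoter windows of build GRCm38.p6, which run from 250 bases before to 50 bases after a transcript's start, were found for 32 of the 35 genes. These genes include Rfc3, Ccnb1 and Mki67, which had no probe, and lack Ccna2 and Kif20a, which were measured. The 19 mitotic genes counted below are therefore not the 19 measured ones. The letters searched, on both strands, were TTTGAA or its variant TTTAAA for the CHR and CCAAT for the CCAAT box. For E2F they were TTCCCGC, with TTCGCGC as a variant, and likewise TTGCCGC and also the form TTGGCGC. The variant TTTAAA reads the same on both strands, and TTGGCGC can share bases with a CCAAT on the opposite strand. In the first window listed for each gene, CHR letters were found in 17 of 19 mitotic genes and 3 of 13 S-phase genes, against 27.8% of 27025 genes. CCAAT was found in 17 of 19 mitotic and 6 of 13 S-phase genes, against 37.9% of all genes. E2F letters were found in 3 of 19 mitotic and 7 of 13 S-phase genes, against 9.69% of all genes. A match is a description of letters, not evidence of a site in use. The sequences below are the 200 bases that end 50 bases after the start, written 5′ to 3′ on the strand of the gene, with CHR, CCAAT and E2F letters in capitals. TTCAAA and ATTGG in capitals are CHR and CCAAT letters of the opposite strand.

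Mitotic genes that were higher in p21 muscles and carry CHR letters near the start come first, then Cdk1, whose window holds all 3 kinds of letters, and the S-phase genes Uhrf1 and Rrm1, which both hold E2F letters and of which Uhrf1 rose and Rrm1 did not pass.
Prc1 (chr7:80294301-80294500, plus strand): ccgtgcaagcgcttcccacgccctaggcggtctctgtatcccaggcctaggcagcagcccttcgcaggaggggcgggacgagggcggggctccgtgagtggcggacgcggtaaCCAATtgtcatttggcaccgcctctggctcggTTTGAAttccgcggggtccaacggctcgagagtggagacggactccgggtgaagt
Cenpa (chr5:30666736-30666935, plus strand): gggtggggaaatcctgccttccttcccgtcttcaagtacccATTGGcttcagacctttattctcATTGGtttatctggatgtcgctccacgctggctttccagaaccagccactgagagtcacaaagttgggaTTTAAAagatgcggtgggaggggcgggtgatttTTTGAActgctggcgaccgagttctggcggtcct
Cdc20 (chr4:118437294-118437493, minus strand): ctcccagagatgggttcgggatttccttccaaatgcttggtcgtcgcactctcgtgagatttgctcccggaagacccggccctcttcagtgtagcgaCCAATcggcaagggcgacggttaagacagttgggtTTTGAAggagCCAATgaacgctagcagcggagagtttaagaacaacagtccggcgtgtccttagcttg
Top2a (chr11:99024140-99024339, minus strand): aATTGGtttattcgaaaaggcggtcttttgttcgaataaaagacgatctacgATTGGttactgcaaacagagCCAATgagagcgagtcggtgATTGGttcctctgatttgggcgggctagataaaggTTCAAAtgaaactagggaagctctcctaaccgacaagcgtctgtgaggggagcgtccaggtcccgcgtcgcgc
Kif22 (chr7:127042371-127042570, minus strand): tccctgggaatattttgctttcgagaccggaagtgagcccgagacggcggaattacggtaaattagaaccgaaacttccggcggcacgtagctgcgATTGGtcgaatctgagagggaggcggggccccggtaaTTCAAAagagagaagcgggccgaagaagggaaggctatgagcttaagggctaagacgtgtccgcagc
Cdk1 (chr10:69352863-69353062, minus strand): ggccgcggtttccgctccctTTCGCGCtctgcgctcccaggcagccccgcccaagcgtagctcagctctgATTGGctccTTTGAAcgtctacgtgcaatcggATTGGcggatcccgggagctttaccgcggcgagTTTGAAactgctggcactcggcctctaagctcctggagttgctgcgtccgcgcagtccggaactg
Uhrf1 (chr17:56303187-56303386, plus strand): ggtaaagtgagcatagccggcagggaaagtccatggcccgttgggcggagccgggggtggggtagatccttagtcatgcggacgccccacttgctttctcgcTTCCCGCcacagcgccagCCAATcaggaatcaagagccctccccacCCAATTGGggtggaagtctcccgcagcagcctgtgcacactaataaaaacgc
Rrm1 (chr7:102441545-102441744, plus strand): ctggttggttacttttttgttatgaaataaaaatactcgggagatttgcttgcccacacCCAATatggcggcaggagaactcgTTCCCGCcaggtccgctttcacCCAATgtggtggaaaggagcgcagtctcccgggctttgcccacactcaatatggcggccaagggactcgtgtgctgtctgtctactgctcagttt

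In these windows the CHR letters nearest the start begin 5 bases before it in Prc1, 18 in Cdc20, 23 in Top2a, 17 in Kif22 and 15 in Cdk1. In Cenpa, TTTAAA begins 17 bases before the start and TTTGAA 16 bases after it. Uhrf1 and Rrm1 hold TTCCCGC that begins 48 and 67 bases before the start. Of the 10 members that were higher in p21 muscles, as given below, 6 had CHR letters, 6 had CCAAT and 1 had E2F letters in the first window, and of 19 measured members with a window that did not pass 12 had CHR letters, 14 CCAAT and 6 E2F letters. Birc5 had its CHR letters far from the start, and no letters of any kind were found for Nusap1, Tyms or the first window of Lig1. The other windows of Lig1 held E2F letters, and another window of Uhrf1 held CHR letters, so the counts depend on the window taken. The shares of members that passed and did not pass were not tested against each other.

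Each array gave deposited log2 intensities for 25697 probes, normalized so that all 8 arrays share a lowest value of 8.13, a median of 8.39 and a highest value of 15.27. The median lies just above the lowest value, so a probe whose mean was under 8.39 in both groups was taken as near the floor, where differences are compressed. Levels below are log2 intensities of a gene's brightest probe, and changes are p21 minus control on that scale ± SE from limma, with p adjusted over all probes. The number of arrays limits the precision. Cdkn1a, which encodes p21, read 11.31, 11.72, 11.25 and 11.50 in p21 muscles 1 to 4, against 9.83, 9.92, 10.27 and 10.02 in control muscles 1 to 4. Its groups lay apart, with a change of 1.43 ± 0.12 (limma adjusted p = 0.00042), and its other probes rose by 1.21 ± 0.11 and 0.99 ± 0.10. Skeletal muscle markers read 13.77 to 15.27 on average, so the tissue matched its label. The top of that range is also the highest value of the arrays, so a marker there could not rise. Of these 10 markers none rose and 1 fell, Myh4, the fastest myosin heavy chain, at −0.44 ± 0.11 (adjusted p = 0.0334), and the median change was −0.04. Their mean level was 14.84, 14.74, 14.88 and 14.82 in p21 muscles 1 to 4, against 14.91, 14.90, 14.92 and 14.89 in control muscles 1 to 4, so it was lower in every p21 muscle and lowest in p21 muscle 2. Array p21 muscle 2 correlated least with the others (mean r = 0.968 across probes, against 0.976 to 0.989 for the other arrays) and had the lowest array weight, 0.50.

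Of the measured members 10 were higher in p21 muscles and none was lower. Of 12 S-phase members, 3 rose: Uhrf1, Tyms and Lig1. Of 19 mitotic members, 7 rose: Prc1, Cenpa, Cdc20, Birc5, Top2a, Kif22 and Nusap1. Over all named genes by their brightest probe, 4.24% were higher and 4.79% lower at the same threshold of adjusted p 0.05. The medians over the lists were 0.06 for S-phase and 0.18 for mitotic members, against −0.0040 for all named genes. The shares of the S-phase and mitotic lists that rose were not tested against each other. For each of the 10 members the groups did not overlap, as held with p21 higher for 8.22% of all named genes. Groups that do not overlap always give p = 0.0286 by exact permutation (two-sided), the lowest value possible for 4 arrays per group regrouped without pairs. The 10 were chosen by limma on the same arrays, so this p-value adds no separate support. In bulk tissue such as this, a change in the number of cells of a type and in the RNA per cell cannot be told apart.

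**Figure D1:**
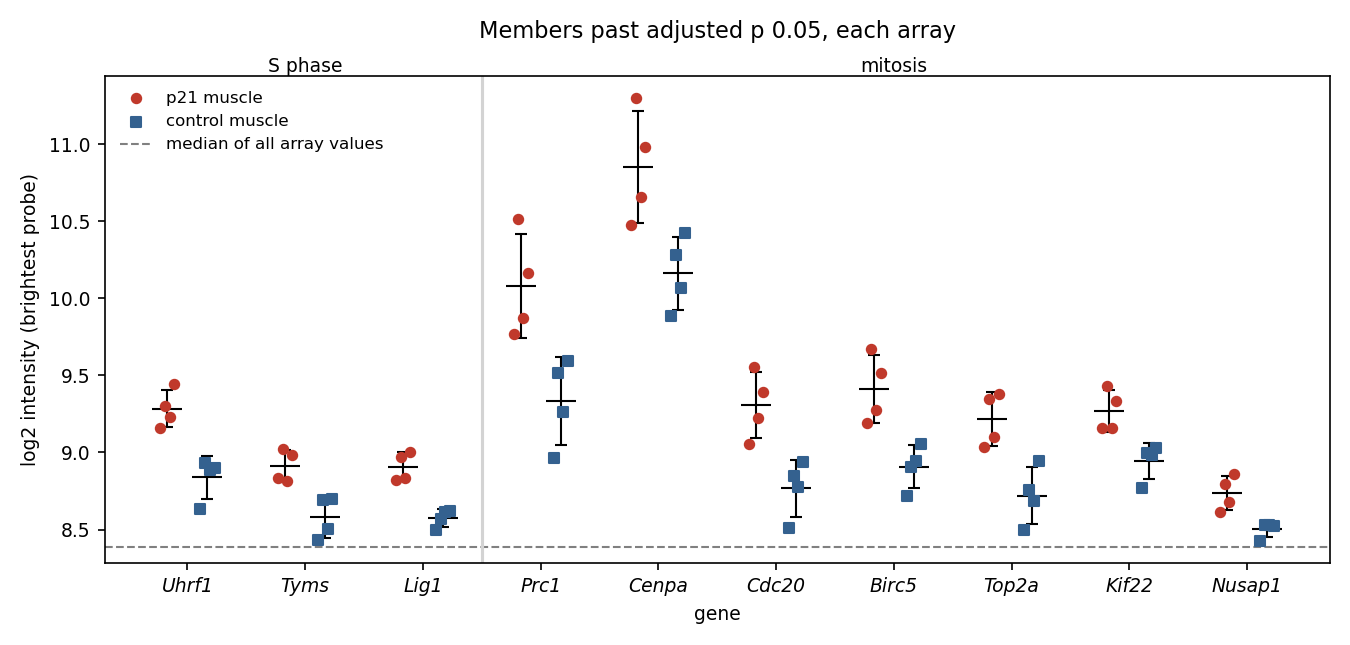
Log2 intensity of the brightest probe of the 10 members past adjusted p 0.05, with p21 muscles as circles left of control muscles as squares, 4 arrays each, and black bars for the mean ± SD. In every gene all p21 arrays lie above all control arrays, from Nusap1, close to the array median (dashed line at 8.39), up to Cenpa, with means of 10.85 and 10.16.

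Among S-phase members, the risers act at different steps of replication. Uhrf1, which recognizes newly copied DNA and recruits the maintenance DNA methyltransferase, read 9.16, 9.30, 9.23 and 9.44 in p21 muscles 1 to 4, against 8.63, 8.93, 8.88 and 8.90 in control muscles 1 to 4. Its p21 arrays all lay above the controls, with similar spread in both groups (SD 0.12 and 0.14), and control muscle 1 was the lowest array. The change was 0.45 ± 0.08, or 1.36-fold (limma adjusted p = 0.0134). Tyms, thymidylate synthase, which makes the thymine nucleotide, read 8.83, 9.02, 8.82 and 8.98 in p21 muscles, against 8.43, 8.69, 8.50 and 8.70 in control muscles. Both groups had higher and lower arrays, but the lowest p21 array still exceeded the highest control. The change was 0.33 ± 0.07, or 1.26-fold (adjusted p = 0.0231). Lig1, the ligase that joins the fragments of the lagging strand, read 8.82, 8.97, 8.84 and 9.001 in p21 muscles, against 8.49, 8.57, 8.62 and 8.62 in control muscles. The gap between the groups was wider than the range within the controls, with a change of 0.33 ± 0.06, or 1.26-fold (adjusted p = 0.0113).

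By their brightest probes, Fen1 and Rrm2 lay near the threshold without passing it. Fen1, the nuclease that trims fragments before Lig1 joins them, read 9.64, 9.78, 9.64 and 9.98 in p21 muscles, against 9.35, 9.46, 9.52 and 9.56 in control muscles. The groups did not overlap, and the change was 0.29 ± 0.09 (adjusted p = 0.0669). With the replicate number as a block, Fen1 had adjusted p = 0.0247. Rrm2, the regulated subunit of ribonucleotide reductase, read 8.79, 8.71, 8.74 and 9.03 in p21 muscles, against 8.46, 8.61, 8.69 and 8.54 in control muscles. Its brightest probe had a change of 0.24 ± 0.07 (adjusted p = 0.0660), while its dimmer probe passed at 0.16 ± 0.04 (adjusted p = 0.0416). The groups of both Rrm2 probes lay apart.

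The remaining S-phase members had changes of either sign, and none passed. Rrm1, the large subunit of the same reductase, read 9.50, 9.57, 9.51 and 9.59 in p21 muscles, against 9.80, 9.61, 9.72 and 9.63 in control muscles. Here every p21 array lay below every control array, and the change of −0.15 ± 0.07 did not pass (adjusted p = 0.209). Rfc4, a subunit of the clamp loader that places Pcna on DNA, read 8.82, 8.66, 9.02 and 8.93 in p21 muscles, against 9.21, 8.89, 9.09 and 9.02 in control muscles. Its groups overlapped, with a change of −0.20 ± 0.09 (adjusted p = 0.198). Rfc5, another clamp loader subunit, and Tk1, thymidine kinase, had changes of 0.04 ± 0.06 and 0.07 ± 0.05. Rrm1, Rfc5 and Tk1 were picked for these values after they were seen. Pcna, the sliding clamp that p21 binds, the primase gene Prim1 and the checkpoint kinase gene Chek1 were near the floor in both groups. Pcna read 8.32, 8.32, 8.33 and 8.39 in p21 muscles, against 8.33, 8.38, 8.45 and 8.37 in control muscles, with overlapping groups and a change of −0.04 ± 0.03. At this level a fall would be hidden and a small rise compressed, so these probes limit what can be read of either.

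Prc1 and Cenpa were the brightest mitotic risers and had the largest changes on the deposited scale, an order that differs on the background-subtracted scale given below. Prc1, which bundles the microtubules of the central spindle, read 9.77, 10.51, 9.87 and 10.16 in p21 muscles 1 to 4, against 8.96, 9.51, 9.27 and 9.60 in control muscles 1 to 4. Muscle 2 was the highest p21 array and muscle 1 the lowest control array, and the spread within a group reached nearly the size of the change. The change was 0.74 ± 0.17, or 1.68-fold (adjusted p = 0.0253). Cenpa, the histone H3 variant that marks centromeres, was the brightest member, at 10.47, 11.30, 10.65 and 10.98 in p21 muscles, against 9.88, 10.28, 10.07 and 10.42 in control muscles. The same arrays stood at the ends, the gap between the groups was small, and the change was 0.69 ± 0.17, or 1.61-fold (adjusted p = 0.0334).

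Risers that act at the metaphase checkpoint and in chromosome structure followed. Cdc20, which activates the ubiquitin ligase that starts anaphase, read 9.06, 9.55, 9.22 and 9.39 in p21 muscles, against 8.51, 8.85, 8.78 and 8.94 in control muscles. Its groups lay apart, with a change of 0.54 ± 0.11, or 1.45-fold (adjusted p = 0.0193). Of its 4 probes 3 passed. Birc5, or survivin, a subunit of the chromosomal passenger complex and an inhibitor of cell death, read 9.19, 9.67, 9.28 and 9.51 in p21 muscles, against 8.72, 8.91, 8.95 and 9.06 in control muscles. All 3 Birc5 probes passed, with changes of 0.51 ± 0.11, 0.42 ± 0.07 and 0.37 ± 0.07, each with p21 muscles apart from control muscles. Top2a, the topoisomerase that untangles sister chromosomes, read 9.04, 9.35, 9.10 and 9.38 in p21 muscles, against 8.50, 8.75, 8.69 and 8.94 in control muscles. The change of Top2a was 0.50 ± 0.10, or 1.41-fold (adjusted p = 0.0187), with p21 muscles 2 and 4 highest.

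Spindle proteins included smaller rises. Kif22, a kinesin that moves chromosome arms, read 9.16, 9.43, 9.16 and 9.33 in p21 muscles, against 8.77, 8.996, 8.98 and 9.03 in control muscles, a change of 0.33 ± 0.08 (adjusted p = 0.0322). Nusap1, a spindle microtubule protein, read 8.61, 8.79, 8.68 and 8.86 in p21 muscles, against 8.43, 8.53, 8.53 and 8.52 in control muscles. Its change of 0.23 ± 0.06 (adjusted p = 0.0333) came from a probe only slightly above the floor, and its other probes, near the floor, did not pass.

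Of the mitotic members Cdk1, Plk1 and Kif11 came closest to the threshold without passing it. Cdk1, the kinase that starts mitosis and a target of p21 inhibition, read 8.91, 9.34, 8.82 and 9.02 in p21 muscles, against 8.28, 8.83, 8.44 and 8.69 in control muscles. Control muscle 2 exceeded p21 muscle 3, so the groups overlapped, and the change was 0.46 ± 0.13 (adjusted p = 0.0502, exact permutation p = 0.0571). With the replicate number as a block, in which each p21 array is set against the control array of its number, Cdk1 had adjusted p = 0.00186. The other Cdk1 probes were near the floor. Plk1, a kinase of spindle assembly, read 8.66, 9.05, 8.77 and 8.83 in p21 muscles, against 8.53, 8.61, 8.62 and 8.67 in control muscles. Its change was 0.22 ± 0.07 (adjusted p = 0.0901, or 0.0365 with the block), and p21 muscle 1 lay within the control range. Kif11, the kinesin that separates spindle poles, read 8.45, 8.51, 8.44 and 8.45 in p21 muscles, against 8.34, 8.32, 8.36 and 8.39 in control muscles. Its groups did not overlap, and its change was 0.11 ± 0.03 (adjusted p = 0.0635). Kif23, a kinesin of cytokinesis, passed with the block alone.

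Aurka, the spindle pole kinase, had values in the opposite direction to the risers. It read 8.72, 8.77, 8.85 and 8.81 in p21 muscles, against 8.95, 8.88, 8.87 and 8.94 in control muscles. Every p21 array lay below every control array, and the change of −0.12 ± 0.05 did not pass (adjusted p = 0.150). Bub1b, a kinase-like protein of the spindle checkpoint, had a change of 0.07 ± 0.08. Aurka, Kif23 and Bub1b were picked for mention after their values were seen. Over the 31 members the groups did not overlap in 13 with p21 higher and in 3 with p21 lower, Rrm1, Aurka and Bub1. Over all named genes this held for 8.22% and 10.3%.

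**Figure D2:**
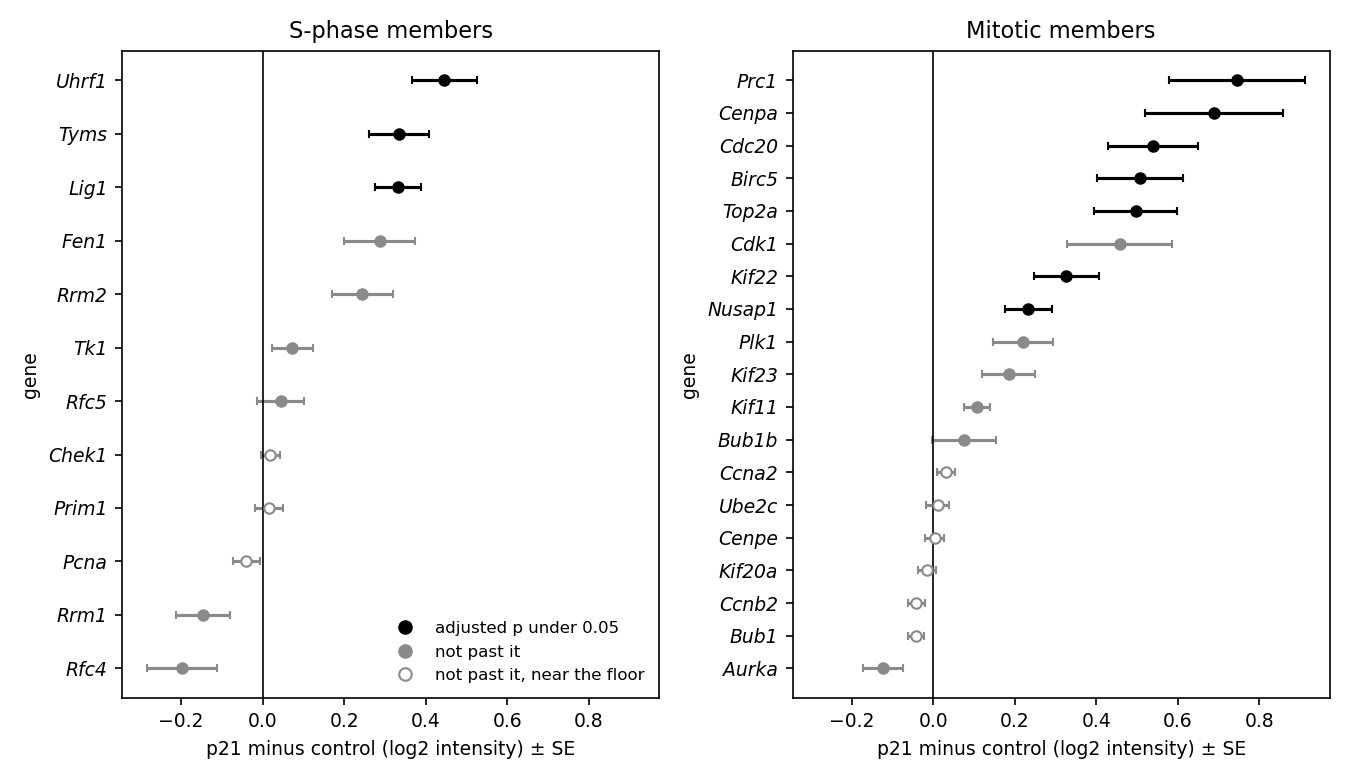
Change in log2 intensity (p21 minus control) ± SE of the brightest probe of each measured S-phase member (left) and mitotic member (right). Black points passed adjusted p 0.05, and open points, near the floor, lie between −0.04 and 0.03, while Rfc4, Rrm1 and Aurka lie lowest among the rest.

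In all, 9 members were near the floor in both groups. Besides Pcna, Prim1 and Chek1 they were the cyclins Ccna2 and Ccnb2, the checkpoint kinase Bub1, the kinesin Kif20a, the kinetochore kinesin Cenpe and Ube2c, which attaches ubiquitin for the ligase that Cdc20 activates. Their values lay between 8.17 and 8.45 on every array, against a lowest value of 8.13 for the whole table, and their changes lay between −0.04 and 0.03. Of all named genes 43.7% were near the floor, where few passed. Among the 9341 genes not near it, 7.43% were higher and 8.4% lower. All 10 members that rose came from the 22 not near the floor, of which 9 were S-phase and 13 mitotic members. A probe above 8.39 in 1 group alone also counts as not near the floor, so these shares depend in part on the change. Kif11, the dimmer Rrm2 probe and a dimmer Cdc20 probe that passed are examples, with control means of 8.35, 8.36 and 8.37. The brightest probes of the 10 risers had means above 8.39 in both groups. The size of the changes depended on this floor. With each array's lowest value subtracted on the linear scale and 16 added, the list medians were 0.15 for S-phase and 0.58 for mitotic members, and the same 10 members passed. On that scale Cdk1 had a change of 1.28 and did not pass (limma adjusted p = 0.0590). The changes of Cdc20, Prc1, Top2a, Birc5 and Cenpa were 1.13, 1.11, 1.10, 0.95 and 0.84, so Cenpa no longer stood among the largest. Those of Tyms, Uhrf1 and Lig1 were 0.91, 0.90 and 0.88. Dimmer probes numbered 23 in 11 members, of which 15 were near the floor and 5 passed, all higher. For Uhrf1, Tyms, Lig1 and Nusap1 a single probe passed. Their other probes were near the floor, except 1 of Tyms, with means of 8.44 in p21 and 8.37 in control muscles. Its groups overlapped, with a change of 0.08 ± 0.05 (limma adjusted p = 0.387). Over all 54 member probes 15 were higher and none lower, against 3.68% higher and 4.35% lower over all 25697 probes.

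**Figure D3:**
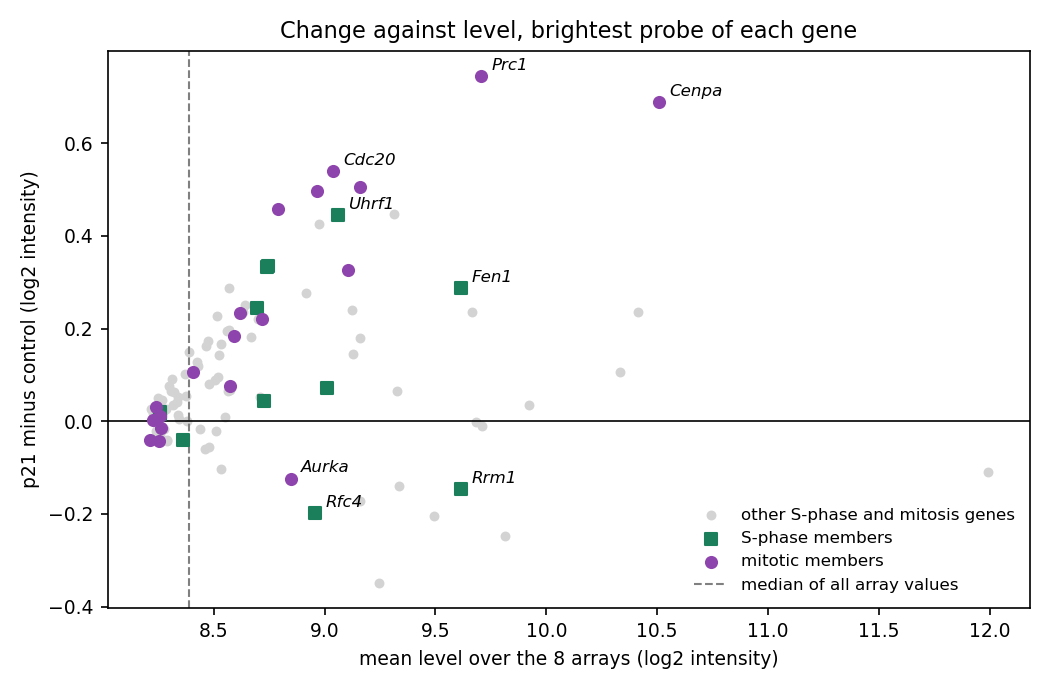
Change (p21 minus control, log2 intensity) against mean level over the 8 arrays for the 12 S-phase members (squares), the 19 mitotic members (circles) and 78 other S-phase and mitosis genes (grey). Genes left of the dashed line at 8.39 show changes close to 0, and to its right most mitotic members lie above 0, while Aurka, Rfc4 and Rrm1 lie below.

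Other genes of the same processes were counted from lists drawn up for comparison. Of 34 other S-phase genes 3 rose and none fell, with a median change of 0.02. They were Chaf1b, a subunit of the chromatin assembly factor that works at the fork (0.24 ± 0.05, limma adjusted p = 0.0259), Clspn, an adaptor of the replication checkpoint (0.25 ± 0.07, adjusted p = 0.0412), and Dnmt1, the maintenance methyltransferase that Uhrf1 recruits (0.24 ± 0.07, adjusted p = 0.0461). Pold1, the catalytic subunit of polymerase delta, had 0.24 ± 0.07 (adjusted p = 0.0726). Of 44 other mitosis genes 8 rose and 1 fell, with a median of 0.06. The risers included Cdca3, which promotes mitotic entry (0.45 ± 0.09, adjusted p = 0.0192), Cdca2, a chromatin-bound phosphatase subunit (0.29 ± 0.06, adjusted p = 0.0170), and Kif4, a chromosome kinesin (0.23 ± 0.05, adjusted p = 0.0181). The gene that fell was Bub3, of the spindle checkpoint, at 9.07 ± 0.10 in p21 muscles and 9.42 ± 0.08 in control muscles (SD, n = 4 each), a change of −0.35 ± 0.07 (adjusted p = 0.0166). Of the other mitosis genes 20 were near the floor, as were 10 of the other S-phase genes. Leaving out p21 muscle 2 left 1 other S-phase and 5 other mitosis genes, and leaving out control muscle 1, 2, 3 or 4 left 0, 0, 1 and 2 other S-phase and 1, 1, 3 and 4 other mitosis genes. Without p21 muscle 4 none of either list rose.

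The members that rose shared an order over the arrays. Control muscle 1 was the lowest control array in all 10, and the highest p21 array was muscle 2 in 6 of them and muscle 4 in 4. Over all named genes, which were not chosen by their change, those arrays were the lowest control in 27.5% and the highest p21 array in 31.0% and 20.8%. Over all measured members control muscle 1 was lowest in 12 of 19 mitotic and 6 of 12 S-phase members. The highest p21 array was muscle 2 in 10 mitotic and 2 S-phase members, and muscle 4 in 4 and 8. The mean level of the 7 mitotic risers was 9.33, 9.80, 9.42 and 9.66 in p21 muscles 1 to 4, against 8.82, 9.12, 9.04 and 9.21 in control muscles 1 to 4. The mean level of the 3 S-phase risers was 8.94, 9.10, 8.96 and 9.14 in p21 muscles, against 8.52, 8.73, 8.67 and 8.74 in control muscles. In both sets p21 muscles 2 and 4 were the highest and control muscle 1 the lowest. Arrays of the same number differed by 0.50, 0.68, 0.39 and 0.45 for the mitotic risers and by 0.42, 0.37, 0.29 and 0.40 for the S-phase risers. The sets of risers were chosen by their change, so their order and means are a description.

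Markers of other cell types went in either direction. Of 14 macrophage markers 10 rose, led by Ctss, a lysosomal protease, and the complement genes C1qc, C1qa and C1qb, with changes of 0.61 ± 0.08, 1.49 ± 0.22, 1.12 ± 0.17 and 1.46 ± 0.22. Their mean level was 11.25, 11.63, 11.27 and 11.69 in p21 muscles 1 to 4, against 10.03, 10.35, 10.72 and 10.83 in control muscles 1 to 4, and all 14 were above the floor. For macrophage markers p21 muscles 2 and 4 were highest and control muscle 1 lowest. The next lowest control was muscle 2, while in both sets of risers it was muscle 3. Of 7 satellite cell and myoblast markers 3 rose, Myog, Mymk and Vcam1, with changes of 1.27 ± 0.09, 0.72 ± 0.07 and 0.74 ± 0.14. Myod1 had 0.21 ± 0.07 (adjusted p = 0.104), and Pax7, which defines satellite cells, Calcr and Myf5 were near the floor in both groups. Their mean level was 9.02 to 9.14 in p21 muscles, with muscle 2 highest, and 8.59 to 8.68 in control muscles, with muscle 4 lowest. Of 8 fibroblast markers 1 rose, of 8 T and NK cell markers 1 rose, of 7 endothelial markers 2 fell, and of 6 neutrophil and 3 Schwann cell markers none passed. Fibroblast markers had mean levels of 11.24, 11.84, 11.32 and 11.39 in p21 muscles 1 to 4. In control muscles 1 to 4 these levels were 10.84, 11.37, 11.14 and 11.31. For fibroblast markers p21 muscles 2 and 4 were highest and control muscle 1 lowest. For endothelial markers p21 muscle 2 was highest and control muscle 3 lowest. For neutrophil and Schwann cell markers p21 muscle 3 was highest and control muscle 1 lowest. Mean levels of T and NK cell markers were 8.76 to 9.33 in p21 muscles, with muscle 2 lowest. In control muscles they were 8.58 to 8.94, with muscle 1 lowest. The part of these cells in the changes of S-phase and mitotic genes was not tested.

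**Figure D4:**
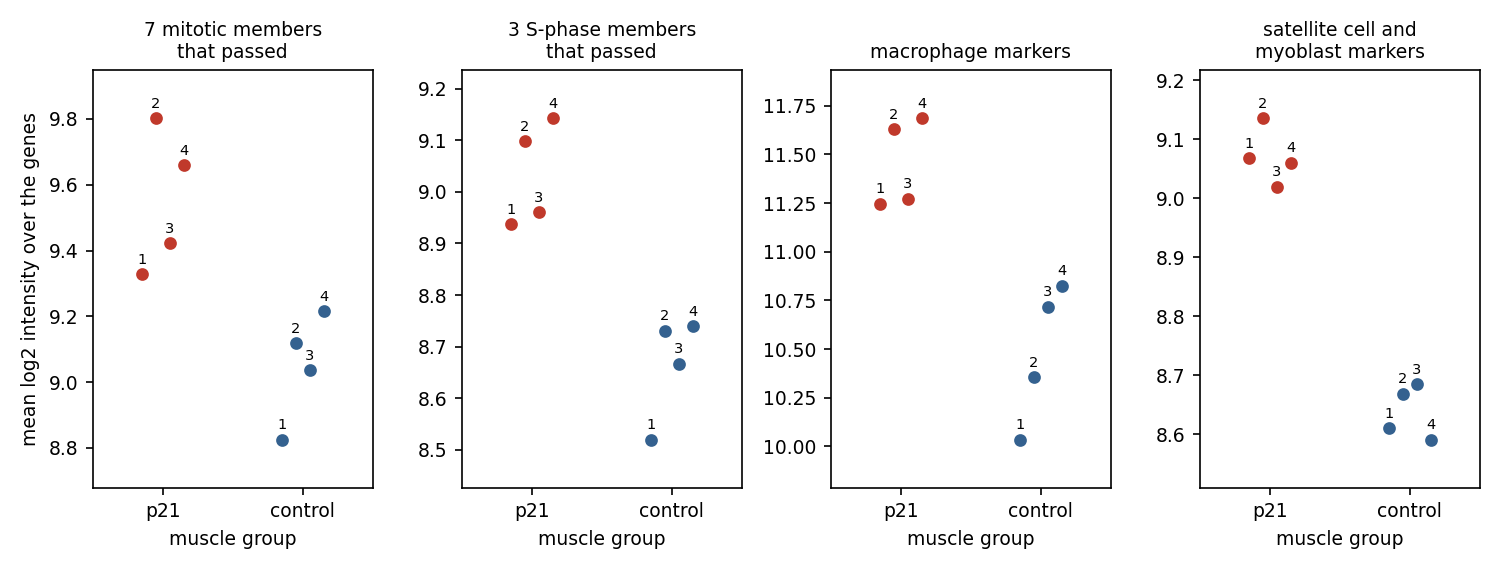
Mean log2 intensity over the genes of each set (vertical axes differ) in p21 muscles (left) and control muscles (right) of each panel, with the replicate number above each point. In the 7 mitotic risers, 3 S-phase risers and 14 macrophage markers p21 muscles 2 and 4 are highest and control muscle 1 is lowest. For satellite cell and myoblast markers p21 muscle 2 is highest and control muscle 4 lowest.

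The calls depended on some arrays more than on others. The number of mitotic members that rose was 0 without control muscle 1, 0 without control muscle 2, 3 without control muscle 3 and 0 without p21 muscle 4, and 6 to 8 without any other array. For S-phase members it was 0 without p21 muscle 4 and 2 to 4 without any other array. In the same fits the probes of the whole array called higher numbered 253, 245, 563 and 130, against 945 with all arrays. No member changed direction among the 16 named here by the rule for naming genes. Uhrf1 and Lig1 lost their call in 1 of 17 alternatives, that without p21 muscle 4, where they had adjusted p = 0.0540 and 0.0532. Birc5, Cdc20 and Top2a lost theirs without control muscle 1 or 2 or p21 muscle 4. Tyms was lost without control muscle 1 or 3 or p21 muscle 4 and with the mean of its probes. Prc1 and Cenpa were lost without control muscle 1, 2 or 3 or p21 muscle 4, with robust eBayes and without the intensity trend. Kif22 was lost without control muscle 1, 2 or 3 or p21 muscle 4, and Nusap1 also without control muscle 4 or p21 muscle 2 and with the mean of its probes. Without p21 muscle 2, the array that stood apart, 4 S-phase members, now with Rrm2, and 6 mitotic members rose. Rrm2 gained a call in 4 of the 17 alternatives.

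**Figure D5:**
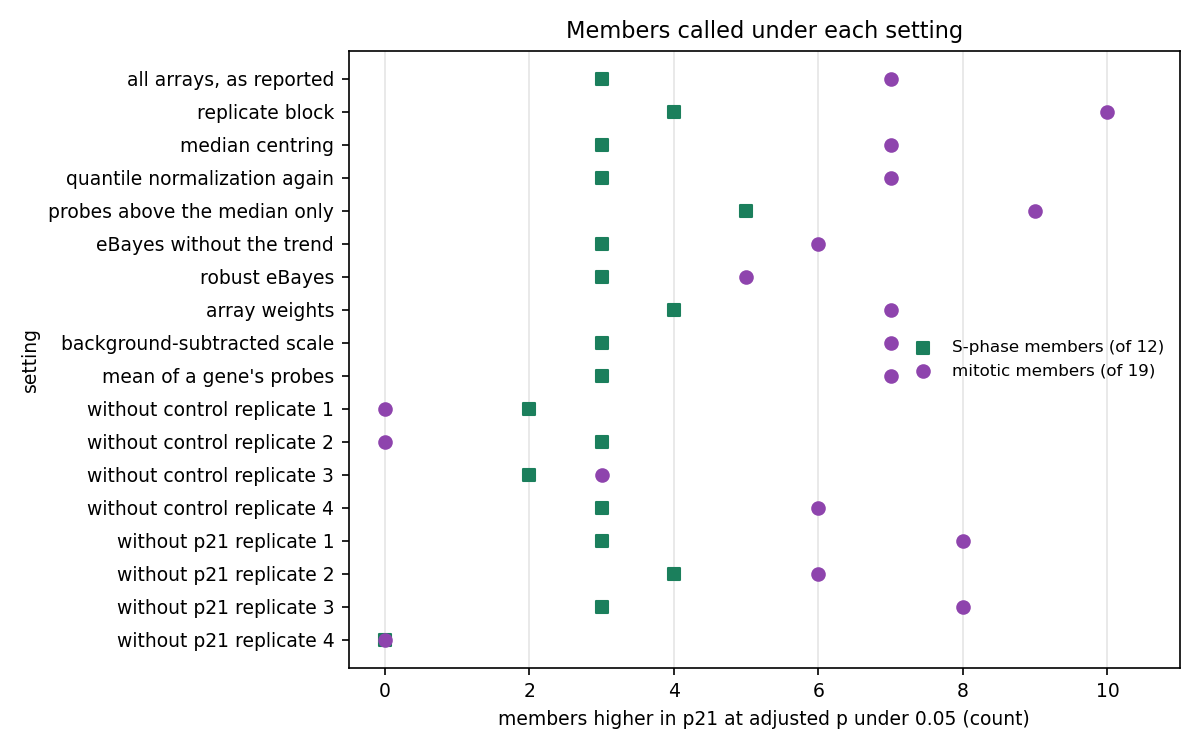
Number of S-phase members (squares, of 12) and mitotic members (circles, of 19) higher in p21 muscles at adjusted p under 0.05, under each setting of the fit. The counts lie at 3 to 5 and 5 to 10 in the settings that keep all arrays, and the mitotic count falls to 0 without control muscle 1, control muscle 2 or p21 muscle 4.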

How the data were processed

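Total RNA was amplified, labelled with biotin and hybridised to Illumina bead arrays, per the labels' protocols. The authors deposited log2 intensities. No source used here names the array software, the background correction or the normalization. Ranked within each array, values of equal rank lay within 0.00073 of each other, the pattern that quantile normalization leaves. No pair of arrays held identical values, and no probe was filtered. Of 25697 probes, 23978 had 1 gene symbol and 1719 are unnamed here.

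limma 3.58.1 in R 4.3.3 (lmFit, eBayes with an intensity trend) compared p21 with control over all probes, two-sided, adjusted by the Benjamini-Hochberg method. A gene is its brightest probe, the one with the highest mean over all arrays. The fit was tested on simulated data. Groups and replicate numbers come from the titles. Deviations from group means of same-numbered arrays correlated at 0.483, 0.264, 0.212 and 0.181 across probes, all over 0.1. However, p21 muscle 4 correlated more with control muscle 3 (0.448) and p21 muscle 2 more with control muscle 4 (0.297). Whether the numbers mark pairs is therefore uncertain. The main fit and the permutation test did not use them, and the block was run as an alternative. If the arrays are paired, the main p-values ignore that pairing. If they are not, the blocked values have no basis. Blocked values are given where they change a call.

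The members and gene lists were chosen with earlier results of these data known. The text names all members, with full values for those that passed and for the 3 of each list with the smallest p that did not, and up to 4 genes of each other list with the smallest p. Alternatives were the replicate block, median centring, renormalization, probes above the median, eBayes settings, array weights, a background-subtracted scale, probe means and leaving out each array.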

Additional observations from a re-analysis of the deposited data

Results flagged for a closer look

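The highest or lowest array of each group of 4 was compared with the rest for the 31 measured members and Cdkn1a, 64 groups in all, and 3 stood apart by Dixon's criterion, about as many as the 1 in 20 that chance gives. Pcna read 8.39 in p21 muscle 4, against 8.32 to 8.33 in the other p21 muscles, all near the floor. Uhrf1 read 8.63 in control muscle 1, against 8.88 to 8.93 in the other control muscles, and Nusap1 read 8.43 there, against 8.52 to 8.53. Without control muscle 1 the change of Uhrf1 was 0.38 and still passed limma's adjusted p 0.05, while that of Nusap1 was 0.21 and did not.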

How the results depend on the processing

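Over 17 alternatives no S-phase or mitotic member was called lower, and Cdkn1a kept its call and direction in the 16 run for it. Leaving out 1 array at a time gave 0 to 4 S-phase members higher, 0 to 8 mitotic members, 0 to 3 other S-phase genes, 0 to 9 other mitosis genes, and over all probes 130 to 1032 higher and 29 to 1172 lower. With probes above the median alone, where fewer genes are adjusted over, 5 S-phase members and 6 other S-phase genes were higher. With the replicate block 4 S-phase and 10 mitotic members were higher, and over all probes 1559 higher, against 945 without it. The block ended no call among the 10 members and added Fen1, Cdk1, Plk1 and Kif23. Of 272 values of 16 named members under an alternative, 220 kept their side of the threshold, 38 lost the call, 14 gained it and none changed sign. Signal near the floor limits 9 of 31 members, for which a fall would be hidden and a small rise compressed.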
